A study of Mus musculus with 3 samples.

Results

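Actin is the filament protein that lets platelets change shape, extend and contract. Its filaments grow at one end from monomers and shrink at the other, and the pool of free monomer is set by proteins that bind, recharge and release it. Thymosin beta 4 holds monomers back from assembly, profilin and cyclase-associated protein return them to growing ends, cofilin with its partner Wdr1 severs old filaments, and gelsolin and capping protein cut or close filament ends. Platelets keep a large store of monomer and turn it into filaments within moments of activation.

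The genes described here are the 2 cytoplasmic actins, Actb and Actg1, and 8 genes for monomer binding and filament turnover: Tmsb4x, Tmsb10, Pfn1, Cap1, Cfl1, Wdr1, Gsn and Capzb. They were chosen by name for these known roles, and all 10 were among the 9822 genes of the deposited tables. The RNA was that of platelets, the small cells without a nucleus that megakaryocytes release. The donors were BALB/c males of 20 weeks, wild type for Nxf1, and the platelets were purified from blood. There were 3 libraries in this 1 group, and each library had a batch number of its own in the labels, so sample and batch cannot be told apart. The labels do not state whether a sample was 1 animal or several, so the errors and p-values below reflect differences among these samples only, and part of those may be technical.

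The libraries held 26974129, 25189231 and 26111636 counts in replicates 1, 2 and 3. All 12 platelet markers had counts, at means of 341 CPM (Gp6, the collagen receptor) to 31117 CPM (Nrgn), with Ppbp and Pf4, chemokines of platelet granules, at 10169 and 10002 CPM. CPM is the count per 1000000 counts of the library. Replicate 1 stood apart by its red cell RNA: the 12 red cell markers present summed to 49264 CPM there, against 5529 and 7108 CPM in replicates 2 and 3, and all 12 were highest in replicate 1. Among these, Hba-a1, Hba-a2, Hbb-b1, Hbb-bs, Alas2, Bpgm and Slc4a1 were called in the edgeR test of spread described further on. Of the endothelial list, Vwf and Pecam1, which platelets also carry, were at 2297 and 1328 CPM and Tie1 at 54.7 CPM. The 23 leukocyte markers present summed to 1604, 1829 and 1859 CPM in replicates 1, 2 and 3, with none at 0 in any library. Lyz2 (lysozyme) made up most of this, at 1286, 1515 and 1361 CPM, and the other 22 summed to 318, 314 and 498 CPM. The median gene lay higher in replicate 3, by 0.16 on the log2 scale over its own mean of the 3 libraries, and this shift was 0.02 after TMM scaling, which matches libraries on the bulk of their genes.

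The actin and turnover genes were mostly abundant. Their summed share was 0.492%, 0.486% and 0.549% for replicates 1, 2 and 3, each known to within 0.489% to 0.494%, 0.484% to 0.489% and 0.546% to 0.552% by exact 95% Clopper-Pearson limits, which cover counting error only. Replicate 3 was highest by these plain totals, but the order turned with the scaling: after TMM scaling the 10 genes summed to 5181, 5094 and 4974 CPM in replicates 1, 2 and 3. All 10 reached 1 CPM in every library, as did 77.7% of all genes. The median member was at 445 CPM, against 3.86 CPM for the median of all genes, and 8 of 10 had a mean over 50 CPM, against 12.1% of all genes. Divided by gene length, the medians were 240 CPM per 1000 bases for the members and 1.49 for all genes. In bulk RNA of this kind, fewer cells of a type and less RNA per cell cannot be told apart.

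**Figure D1:**
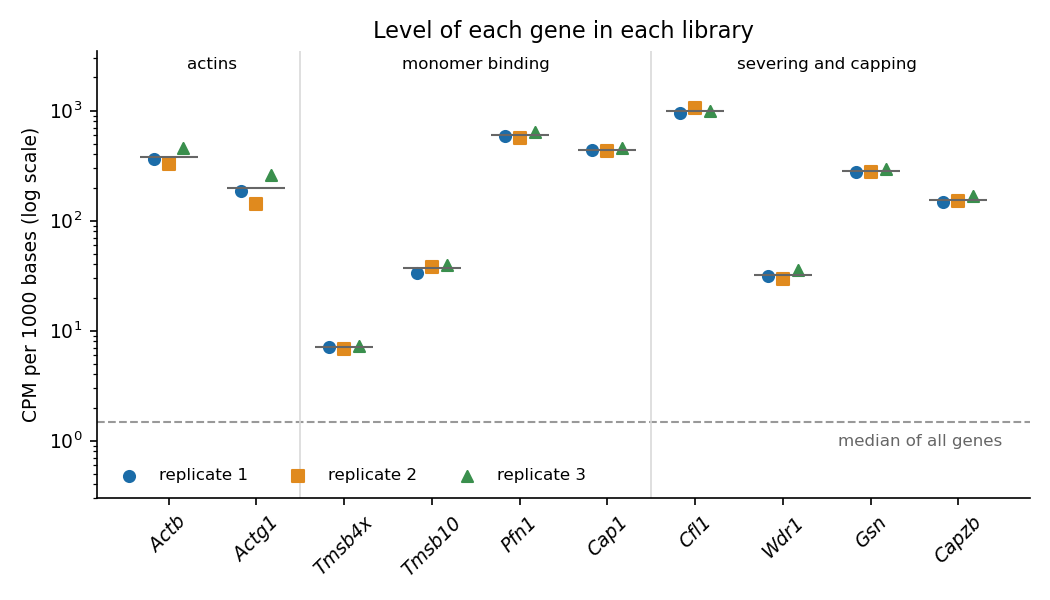
Level of each of the 10 genes in each library, in CPM per 1000 bases of gene length on a log axis, grouped by role, with a grey bar at the mean of 3 libraries and a dashed line at the median of all 9822 genes. Cfl1 is highest at a mean of 1002 and Tmsb4x lowest at 7.11, and all points lie above the dashed line.

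The actins were led by Actb, the gene for beta-actin (Entrez gene 11461, chromosome 5, 142903115 to 142907976 in GRCm38). It had 18629, 15451 and 22469 counts in replicates 1, 2 and 3, or 691, 613 and 860 CPM, a mean of 722 ± 126 CPM (SD, n = 3). Replicate 3 was highest and replicate 2 lowest, 1.40 times apart. Actg1, the gene for gamma-actin (Entrez gene 11465, chromosome 11, 120345687 to 120348495), had 9439, 6827 and 12966 counts, or 350, 271 and 497 CPM, a mean of 373 ± 114 CPM. Its libraries fell in the same order as those of Actb, with a wider gap of 1.83 times. The coefficient of variation (SD as a percentage of the mean) was 17.5% for Actb and 30.7% for Actg1, against a median of 14.4% over the 8289 genes averaging at least 1 CPM. After TMM scaling it was 9.66% for Actb and 22.6% for Actg1, against a median of 12.5%. Actb thus lay above the median by plain CPM and below it on the TMM scale. These medians are not matched for abundance, since the median of the 8289 genes was 5.54 CPM. A comparison with genes of like abundance is given further on.

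Actb gave more reads than Actg1 in all 3 libraries, by log2 ratios of 0.98, 1.18 and 0.79 in replicates 1, 2 and 3. The mean was 0.98 ± 0.19 (SD, n = 3), and their lengths of 1889 and 1894 bases are so close that the ratio per length was 0.99. The gap was widest in replicate 2, where both actins were lowest, and narrowest in replicate 3, where both were highest. Of the 5 muscle and other actin genes listed, only Acta2, smooth muscle alpha-actin, was in the tables, at 0.853, 0.992 and 1.42 CPM from 23, 25 and 37 counts; Acta1, Actc1, Actg2 and Actbl2 are not analysed here.

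Both thymosin genes lay low among the 10. Tmsb4x, which encodes thymosin beta 4 (Entrez gene 19241, chromosome X, 167207093 to 167213479), had 129, 116 and 128 counts in replicates 1, 2 and 3, or 4.78, 4.61 and 4.90 CPM, a mean of 4.76 ± 0.149 CPM (SD, n = 3). It was the lowest of the 10 on either scale and ranked 4446 of 9822 genes by CPM. Tmsb10, its relative thymosin beta 10 (Entrez gene 19240, chromosome 6, 72957347 to 72958748), had 849, 904 and 975 counts, or 31.5, 35.9 and 37.3 CPM, a mean of 34.9 ± 3.05 CPM. The 3 libraries of each gene did not overlap with those of the other. The log2 ratio of Tmsb4x to Tmsb10 was -2.70, -2.94 and -2.91 in replicates 1, 2 and 3, a mean of -2.85 ± 0.13, or -2.36 per length. Against Actb, Tmsb4x gave a log2 ratio of -7.21 ± 0.21 by reads and -5.71 per length, that is 52.4 times fewer reads per base. The levels of both thymosin genes, and so these ratios, are uncertain for reasons given with the shared sequence further on.

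The genes that return monomers to filaments were abundant and steady. Pfn1, profilin 1, which speeds nucleotide exchange on actin and delivers monomers to growing ends (Entrez gene 18643, chromosome 11, 70651844 to 70656799), had 13680, 12446 and 14450 counts. This was 507, 494 and 553 CPM in replicates 1, 2 and 3, a mean of 518 ± 31.2 CPM (SD, n = 3), and 596 ± 35.8 CPM per 1000 bases. Cap1, cyclase-associated protein 1, which helps cofilin take filaments apart and recharges the freed monomers (Entrez gene 12331, chromosome 4, 122859048 to 122886076), was at 1043, 1032 and 1099 CPM, a mean of 1058 ± 35.9 CPM. Its highest and lowest libraries were 1.06 times apart, about as close as those of Tmsb4x. By reads Pfn1 lay below Actb (log2 ratio -0.46 ± 0.16), but per length it lay above it in all 3 libraries, at 0.67, 0.81 and 0.48 (mean 0.65), since its gene length is 870 bases against 1889.

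Cfl1, the non-muscle cofilin, which severs ageing filaments (Entrez gene 12631, chromosome 19, 5490455 to 5494031), was the highest of the 10 genes. It had 30567, 31272 and 30897 counts in replicates 1, 2 and 3, or 1133, 1241 and 1183 CPM, a mean of 1186 ± 54.2 CPM (SD, n = 3), rank 107 by CPM and 75 per length. Wdr1, which encodes the cofilin partner also called Aip1 (Entrez gene 22388, chromosome 5, 38526806 to 38562922), was far lower, at 90.2, 84.3 and 102 CPM, a mean of 92.1 ± 8.80 CPM. The log2 ratio of Wdr1 to Cfl1 was -3.69 ± 0.17 by reads and -4.97 per length, that is 31.4 times fewer reads per base. Cap1 lay just below Cfl1 by reads (log2 ratio -0.16 ± 0.09) and further below per length (-1.18). Pfn1 lay further below Cfl1 by reads (-1.20 ± 0.12) than per length (-0.75). All of these ratios had the same sign in all 3 libraries.

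The genes that act on filament ends lay between. Gsn, gelsolin, which is switched on by calcium to cut filaments and cap the new ends (Entrez gene 227753, chromosome 2, 35256359 to 35307902), was at 810, 819 and 863 CPM in replicates 1, 2 and 3, a mean of 831 ± 28.4 CPM (SD, n = 3). Capzb, the beta subunit of the heterodimeric capping protein (Entrez gene 12345, chromosome 4, 139192899 to 139291820), was at 257, 266 and 290 CPM, a mean of 271 ± 17.2 CPM. Replicate 3 was highest and replicate 1 lowest for both, by 1.07 times for Gsn and 1.13 times for Capzb. Gsn gave 3.07 times the reads of Capzb (log2 ratio 1.62 ± 0.04), or 1.83 times per length, the steadiest ratio of the 9 pairs compared. Capzb gave a log2 ratio of -1.40 ± 0.18 to Actb by reads and -1.29 per length. With 3 libraries the smallest p of an exact two-sided sign-flip test is 0.25, so ratios are given with their SD and no test.

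**Figure D2:**
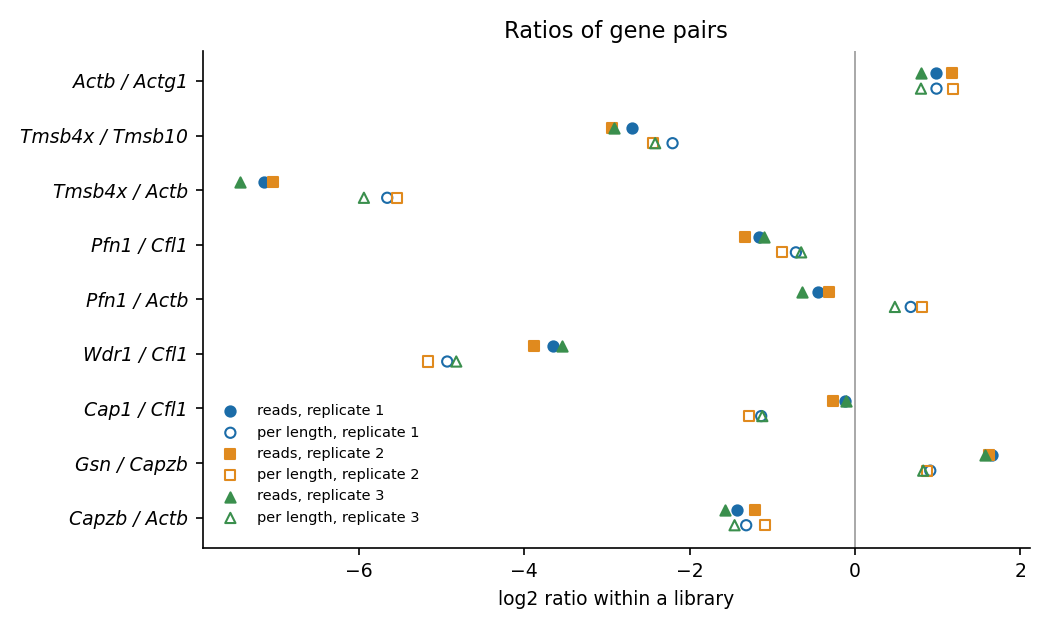
Log2 ratios within each library for 9 fixed pairs of genes, by reads (filled, upper row of each pair) and per gene length (open, lower row), with 3 libraries per row. Every pair keeps 1 side of 0 over the 3 libraries on each scale, and Pfn1 to Actb changes side between reads (mean -0.46) and length (mean 0.65).

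Per gene length, the order from high to low was Cfl1, Pfn1, Cap1, Actb, Gsn, Actg1, Capzb, Tmsb10, Wdr1 and Tmsb4x. Means ran from 1002 CPM per 1000 bases for Cfl1 to 37.0 for Tmsb10, 32.0 for Wdr1 and 7.11 for Tmsb4x. Neighbours were taken to differ beyond the spread where their log2 ratio had 1 sign in all 3 libraries and its mean exceeded its SD, which held for 8 of 9 neighbouring pairs. The order came from these same libraries, so the side of each mean was largely fixed beforehand. The rule is lenient with 3 libraries, and it is a description and not a test. Actg1 and Capzb did not differ beyond the spread: the log2 ratio was 0.33, -0.09 and 0.66 in replicates 1, 2 and 3. Without replicate 2 it was beyond the spread (0.50 ± 0.23), as it was by plain CPM with all 3 libraries (0.42 ± 0.38). Cap1 over Actb was close, at 0.23 ± 0.20, with 0.01 in replicate 3, and this call was lost without replicate 1 (0.21 ± 0.28) or replicate 2 (0.13 ± 0.17). Gsn over Actg1 (0.57 ± 0.40) was also lost without replicate 1 (0.56 ± 0.56). The widest steps in the order were those from Capzb to Tmsb10 (4.19 times) and from Wdr1 to Tmsb4x (4.49 times).

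Summed by role per length, the 4 severing and capping genes were at 1411, 1509 and 1494 CPM per 1000 bases in replicates 1, 2 and 3. They made up 47.1% ± 2.72 (SD, n = 3) of the total of the 10 genes. The 4 monomer-binding genes were at 1059, 1044 and 1142, or 34.6% ± 0.507, and the 2 actins at 550, 468 and 718, or 18.4% ± 2.96. The actin share was thus the one that moved most between libraries relative to its size.

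The sequence before the start site is shown for Cfl1 and Tmsb4x, the highest and the lowest of the 10 per length, and for Actg1, the gene whose libraries differed most. Each is the 250 bases before the RefSeq start in GRCm38.p6, read 5′ to 3′ on the gene's strand, with capitals for a CArG box, the site bound by the serum response factor SRF, or a GC box, which is GGGCGG on either strand.
Actg1, chr11:120348496-120348745, minus strand: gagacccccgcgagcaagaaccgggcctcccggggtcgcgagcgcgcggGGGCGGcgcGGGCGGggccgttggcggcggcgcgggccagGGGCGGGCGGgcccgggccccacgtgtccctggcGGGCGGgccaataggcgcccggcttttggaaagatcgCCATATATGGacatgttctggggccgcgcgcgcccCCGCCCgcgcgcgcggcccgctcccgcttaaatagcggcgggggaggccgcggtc
Cfl1, chr19:5490205-5490454, plus strand: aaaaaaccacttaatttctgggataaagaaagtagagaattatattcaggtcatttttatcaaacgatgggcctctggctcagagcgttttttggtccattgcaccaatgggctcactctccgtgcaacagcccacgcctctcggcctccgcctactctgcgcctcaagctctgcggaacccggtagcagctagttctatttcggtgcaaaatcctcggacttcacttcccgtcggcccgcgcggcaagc
Tmsb4x, chrX:167209219-167209468, minus strand: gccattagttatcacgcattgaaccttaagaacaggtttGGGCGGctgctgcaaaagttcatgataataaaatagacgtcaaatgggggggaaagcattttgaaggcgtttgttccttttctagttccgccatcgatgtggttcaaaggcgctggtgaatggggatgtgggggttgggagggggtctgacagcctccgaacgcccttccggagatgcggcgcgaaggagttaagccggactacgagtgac
Actg1 held 1 CArG box, CCATATATGG, whose first base lies 90 bases before the start, and 6 GC boxes, some of which overlap each other. Tmsb4x held 1 GC box and Cfl1 neither motif. The Tmsb4x start used here lies inside the longer gene span given above. Promoters were found in the table for 9 of the 10 genes, all but Actb, whose promoter was therefore not searched. They came to 13 sequences in all, since Gsn and Tmsb10 have 3 starts each. A CArG box stood in 1 of these 13, against 1.47% of 32851 promoters of the same length, and a GC box in 11 of 13, against 32.7%. By gene, 7 of the 9 held a GC box, while the 32.7% counts promoters and not genes. A TATA box, TATAAA on either strand, stood in 0 of 13, against 12.4%. The G and C content ran from 52% to 79.2% (highest in Actg1), with a median of 57.6% over the 13, against 52.4% for all promoters. A match is a description of these letters and not of binding.

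Whether any of the 10 genes differed between libraries more than genes of like abundance was tested with edgeR, across the 8289 genes averaging at least 1 CPM, with TMM scaling. Each gene's quasi-likelihood dispersion was divided by the trend for its abundance, so a value of 1 lies on the trend. The median over all genes was 0.740. The p-values were adjusted by the Benjamini-Hochberg method over all genes. None of the 10 was called at an adjusted p under 0.05, as against 22 of all genes (0.265%), and 1 of 10 had an unadjusted p under 0.05, against 4.72% of all genes. On simulated data the test found 0 of 50 changes of 2-fold in 1 library, so gaps of that size could go uncalled in any gene. DESeq2 marked 0 of the 10 as dispersion outliers, and 49 of all 8289 genes. Such shares are too low for 0 of 10 to say anything of the members. The gene with an unadjusted p under 0.05 was Actg1, at 5.69 times the trend (edgeR, unadjusted p = 0.0169, adjusted p = 0.860), rank 162 by p. Actb followed at 0.907 times the trend (edgeR adjusted p = 0.990). The other 8 genes lay at 0.0948 (Capzb) to 0.801 (Cfl1) times the trend, so that 9 of 10 were under 1, as were 61.1% of all genes.

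**Figure D3:**
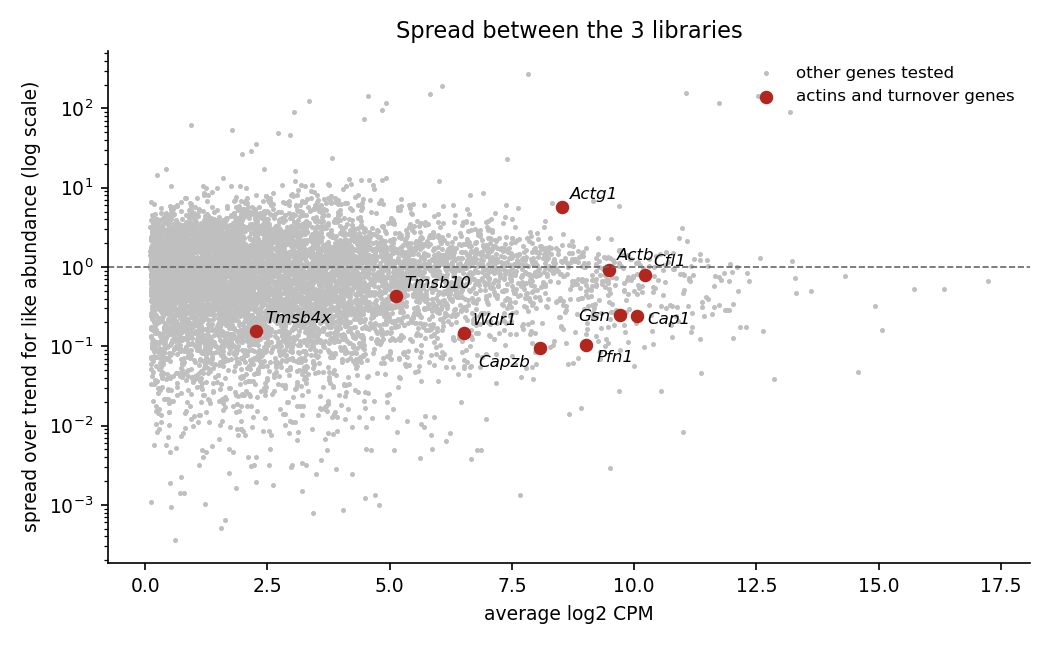
Spread between the 3 libraries for each of 8289 genes, as the quasi-likelihood dispersion divided by its trend (log axis), against average log2 CPM, with the 10 genes in red and a dashed line at 1. Actg1 lies above the line at 5.69, Actb just under it at 0.907 and the other 8 lower.

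Replicate 2 bore on the value for Actg1. Without replicate 2 it was 1.21 times the trend (edgeR, unadjusted p = 0.271), without replicate 1 it was 4.08 and without replicate 3 it was 9.80. With plain library totals in place of TMM scaling it was 28.2 (edgeR, unadjusted p = 0.00102, adjusted p = 0.383), and Actb was then at 8.83 (edgeR, unadjusted p = 0.0173).

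Which library was highest depended on the scaling for most of these genes. By plain CPM 9 of 10 were highest in replicate 3, 1 (Cfl1) in replicate 2 and 0 in replicate 1, against 69.1%, 15.7% and 15.2% of the 8289 genes. After TMM scaling 2 were highest in replicate 3, 4 in replicate 2 and 4 in replicate 1, against 42.1%, 27.5% and 30.4%. The 2 that stayed highest in replicate 3 were Actb and Actg1. On the TMM scale Actb was at 728, 643 and 780 CPM and Actg1 at 369, 284 and 450 CPM in replicates 1, 2 and 3, so that replicate 2 was lowest for both on either scale.

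Of the 23 leukocyte markers, 19 were highest in replicate 3 by plain CPM and 16 after TMM scaling. Of all 9822 genes, 6752 and 4267 were. The sum of the markers turned on Lyz2, the most abundant. With Lyz2 the sum after TMM scaling was 1690, 1916 and 1684 CPM in replicates 1, 2 and 3, highest in replicate 2, and it deviated by -0.06 on the log2 scale in replicate 3. Without Lyz2 it was 335, 329 and 451 CPM, highest in replicate 3. That sum without Lyz2 deviated by 0.29 on the log2 scale in replicate 3 after TMM scaling, against 0.32 for Actg1 and 0.13 for Actb. In replicate 2, where Actg1 deviated by -0.35 and Actb by -0.15, the sum without Lyz2 was at -0.16 and the sum with it at 0.12. In replicate 1 they were at -0.13 and -0.06 while the actins were at 0.03. Cd74 and H2-Aa, genes of antigen presentation, were at means of 127 and 95.6 CPM, and Cd3e and Ly6g are not analysed here. The part of such cells, and of red cells, in the actin values was not tested. With the red cell, leukocyte and endothelial markers and the 10 highest genes removed before scaling, Actg1 was at 5.72 times the trend. Any reads of other cells within the count of Actg1 itself remain in that value, so it does not address their part.

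**Figure D4:**
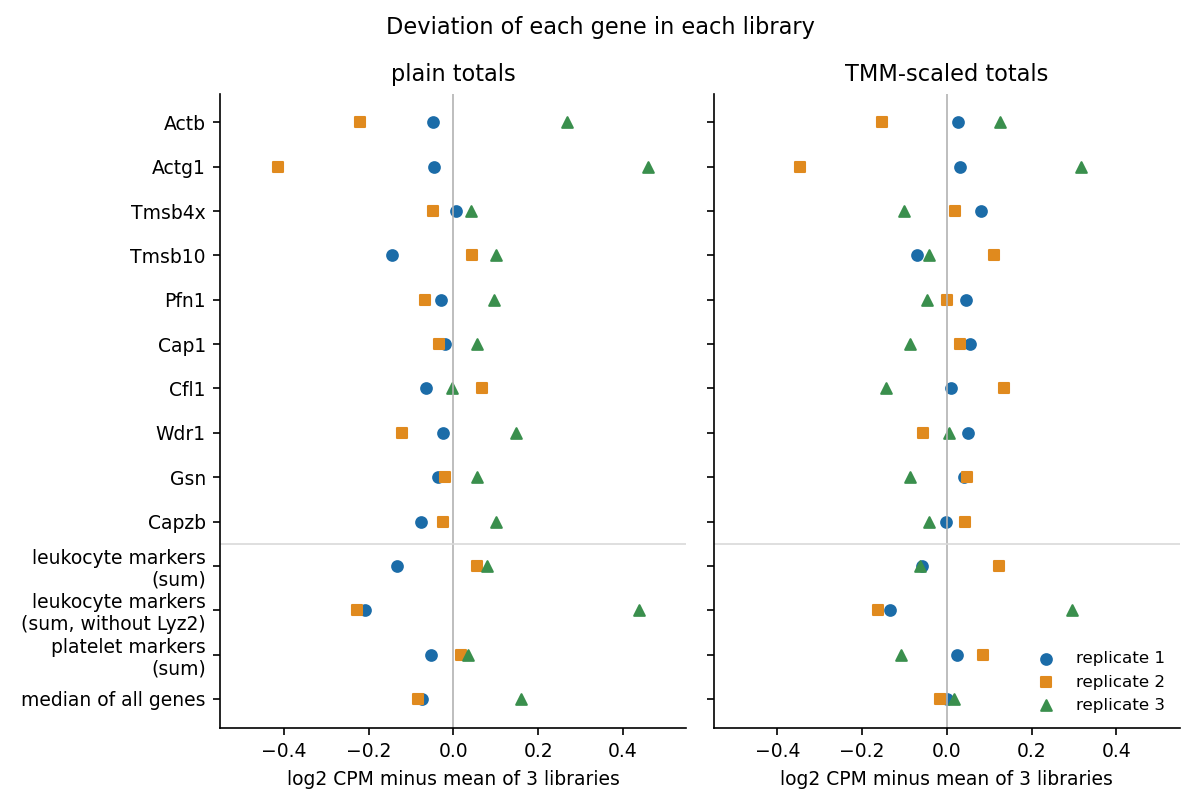
Deviation of each gene from its own mean over the 3 libraries in log2 CPM, with plain library totals (left) and TMM-scaled totals (right), and below the line the same for leukocyte markers summed with and without Lyz2, summed platelet markers and the median of the 8289 genes averaging at least 1 CPM. Actg1 spans -0.41 to 0.46 on the left and -0.35 to 0.32 on the right, the widest of the 10 genes in both panels, and in the right panel the leukocyte sum in replicate 3 is at -0.06 with Lyz2 and 0.29 without it.

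Sequence shared with other genes limits how exactly some of these levels are known. Windows of 50 bases were cut from the longest protein-coding GENCODE M21 transcript of each gene and looked up in the transcripts of all other annotated genes. Actg1 shared most: 56.7% of its windows occurred elsewhere, in 22 other genes, of which 12 are processed pseudogenes. Tmsb10 shared 43.5%, Cfl1 23.0%, Actb 14.2% and Cap1 2.98%. Most of the Cfl1 share was with a transcript of Snx32 (16.2% of windows), and 8.11% was with the processed pseudogene Gm6180. The Cfl1 transcript searched has 2354 bases, against a deposited gene length of 1184. Nearly all of the Cap1 share was with Ppt1 (2.94%). The other 5 genes, Tmsb4x, Pfn1, Wdr1, Gsn and Capzb, shared 0 of their windows. With windows of 100 bases the shares were 51.1% for Actg1, 21.5% for Tmsb10, 12.4% for Cfl1 and 1.10% for Actb. How reads that match several places were counted is not given in the sources used here. The levels of Actg1, Tmsb10 and Cfl1 are therefore uncertain, and with them every ratio that uses these genes, such as that of Actb to Actg1. For Tmsb4x no shared window was found among annotated transcripts. Unannotated copies were not examined, so the level of Tmsb4x and its ratios to Tmsb10 and Actb are uncertain too. How far the low counts of Tmsb4x reflect its RNA was not tested. Strand use in counting is not given either. Pfn1 overlaps the span of Eno3 and Cap1 that of Ppt1 in the RefSeq table, and both neighbours had counts. Reads in the overlap of Cap1 and Ppt1 transcripts cannot be told apart. The Pfn1 transcript searched shared 0 windows with transcripts of Eno3, on either strand.

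The genes around this core mostly gave fewer reads. Over 8 further lists of actin dynamics, 63 of 97 genes were in the tables and 55 were at 1 CPM or more in every library, with a median of 10.7 CPM and 4.24 CPM per 1000 bases. Of the 59 that entered the edgeR test of spread, 0 were called (0.265% of all genes tested). An unadjusted edgeR p under 0.05 was found for 7 of them (4.72% of all genes). DESeq2 marked 0 of the 59 as dispersion outliers, against 49 of all 8289 genes. The 7 were Coro1a, Coro7, Capg, Carmil2, Rcsd1, Fmnl1 and Diaph2. The genes named from each list are those with the most reads, which is not always their order per length. Among other monomer-binding proteins, Twf1, twinfilin 1, was at 265 ± 4.84 CPM (SD, n = 3), the filament and membrane linker Mtss1 at 101 ± 3.98 CPM and Twf2 at 24.1 ± 4.45 CPM; 3 of 11 were in the tables, and Pfn2, Cap2 and the Tmsb15 genes are not analysed here. Among severing and debranching proteins, with 11 of 16 in the tables, Dstn, destrin, a close relative of cofilin, was at 102 ± 8.30 CPM and the muscle cofilin Cfl2 at 23.9 CPM. Coronin 1A, Coro1a, known from leukocytes, was at 73.7, 86.6 and 146 CPM in replicates 1, 2 and 3, and Coro1b at 55.0 ± 6.18 CPM. Per 1000 bases the means were 63.9 CPM for Coro1a, 53.8 for Dstn and 29.8 for Coro1b.

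Among end-capping genes, Tmod3, tropomodulin 3, which covers the slow-growing end of filaments, was at 688, 691 and 690 CPM in replicates 1, 2 and 3. Add1, an adducin of the membrane skeleton, was at 177 ± 15.2 CPM (SD, n = 3). The alpha subunits that pair with Capzb in capping protein were Capza2 at 107 ± 4.88 CPM and Capza1 at 55.4 CPM, both below Capzb on either scale. In the formin list, first by reads and per length was Inf2, a formin that also takes filaments apart, at 563 ± 84.8 CPM, followed by Vasp, which protects growing ends, at 195 ± 9.14 CPM and the formin Diaph1 at 85.9 ± 1.85 CPM.

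The genes that regulate cofilin by phosphorylation lay low. By reads the first were the phosphatase Ssh2 at 8.59 ± 2.64 CPM, the kinase Limk1 at 8.06 ± 1.82 CPM and the phosphatase Ssh1 at 7.26 ± 0.848 CPM (SD, n = 3), with 5 of 6 at 1 CPM or more in every library. Per 1000 bases the order differed, with Limk1 at 2.43, Ssh1 at 2.29, the kinase Tesk1 at 0.997 CPM and Ssh2 just below it. For folding and modification of actin, the prefoldin gene Pfdn5 was at 97.1 ± 4.17 CPM, the actin histidine methyltransferase Setd3 at 87.6 ± 2.46 CPM and the prefoldin gene Vbp1 at 24.7 ± 2.25 CPM. SRF and its MRTF partners, which respond to the level of free monomer and act on actin genes, were at 10.7 ± 1.31 CPM (Srf), 9.88 ± 1.83 CPM (Mrtfa) and 2.08 ± 0.493 CPM (Mrtfb).

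The Arp2/3 complex, which starts branched filaments, and non-muscle myosin II, which pulls on them, were set beside the 10 genes, as the only other complexes compared. The Arp2/3 genes, 9 of 10 in the tables, had a median of 94.4 CPM per 1000 bases and took 0.222% of counts, with Arpc2 at 767 ± 37.5, Arpc3 at 327 ± 11.6 and Arpc1a at 288 ± 25.8 CPM (SD, n = 3). The myosin II genes, 6 of 7, had a median of 198 CPM per 1000 bases and took 0.964% of counts, with the light chains Myl9 at 6343 ± 456 and Myl6 at 1943 ± 46.0 CPM and the heavy chain Myh9 at 1010 ± 126 CPM. Per 1000 bases the light chain Myl12b (260 CPM) lay above Myh9 (137 CPM). The members of the present set stood at a median of 240 CPM per 1000 bases and 0.509% ± 0.0348 of counts. No test between sets was made, since the genes of each were chosen by name.

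**Figure D5:**
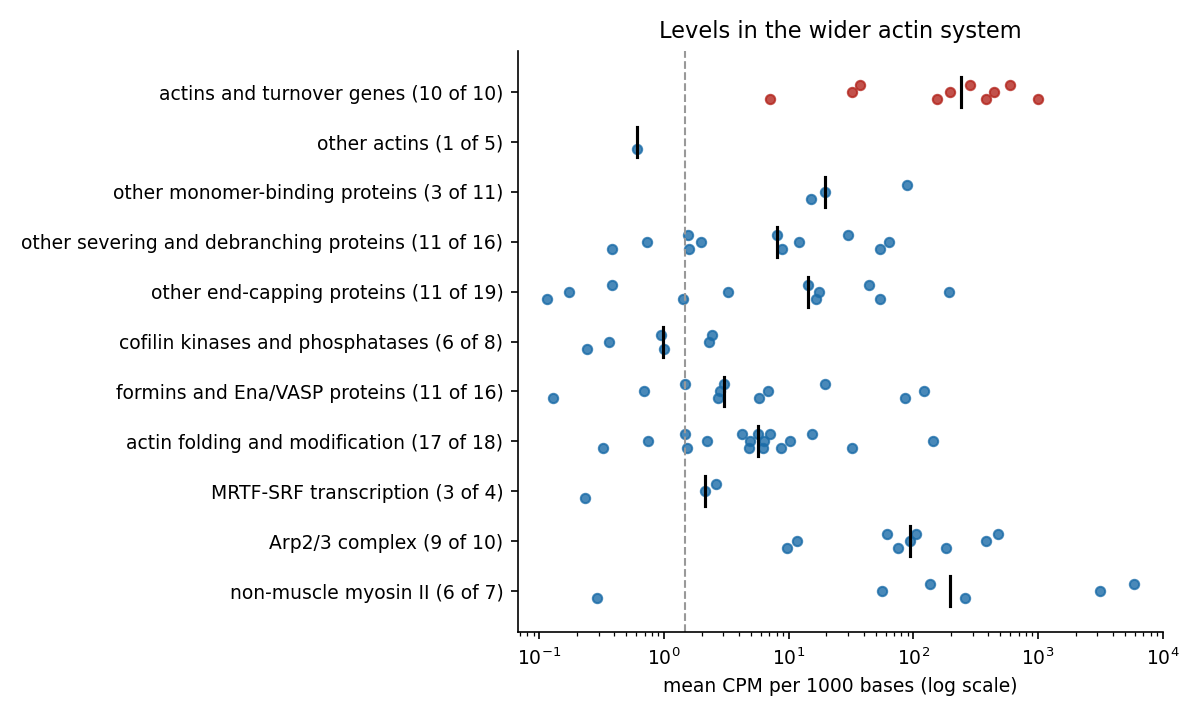
Mean level of each gene, in CPM per 1000 bases on a log axis, for the 10 actin and turnover genes (red, top) and 10 other lists (blue), with a black bar at the median of each list and a dashed line at the median of all 9822 genes. The number of genes in the tables of the number listed stands beside each name. The medians run from 240 in the top row and 198 for non-muscle myosin II to 0.973 for cofilin kinases and phosphatases and 0.611 for the single gene among other actins.

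The genes most like these in level over the 3 libraries were sought by the root-mean-square difference in log2 CPM. For Actb this was Samd14, at 680, 663 and 843 CPM in replicates 1, 2 and 3 and a difference of 0.07. For Actg1 the nearest was Bicd2, at 350, 279 and 397 CPM and 0.19, and no gene came within 0.1. For Cap1 it was Pcmt1 (0.02), for Pfn1 Eif4g2 (0.03), for Gsn Birc2 (0.03), for Wdr1 Adgre5 (0.03), for Capzb Ttc28 (0.04) and for Tmsb10 Fbxw5 (0.02). For Cfl1 it was the pseudogene Gm10080 (0.03) and for Tmsb4x the long non-coding RNA gene Gm10638 (0.01). With 3 libraries such likeness is mostly likeness of level: 53 genes lay within 0.1 of Tmsb4x and 35 within 0.1 of Tmsb10. The choice also moved with single libraries. Samd14 was at rank 8 without replicate 3, Bicd2 at rank 17 without replicate 2, Eif4g2 at rank 9 without replicate 3 and Ttc28 at rank 9 without replicate 1. Gm10080 was the nearest to Cfl1 with any 1 library left out.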

How the data were processed

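Platelet RNA (Norgen kit) was made into TruSeq RNA version 2 libraries, per the labels' protocols. The 3 deposited tables, 1 per library, hold raw counts and a length for each Entrez gene number. CASAVA 1.8.2, Subread, featureCounts, edgeR 3.11.5 and build mm10 are named, with no roles or settings, per the submitters' processing notes. The annotation, the strand setting, the handling of multi-mapping reads and the filter that left 9822 genes have no statement in the sources used here.

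Symbols were looked up in the RefSeq table for GRCm38.p6, the assembly of mm10. All 10 members matched, and of 184 listed symbols 2 (Actmap and Ahsp) did not. CPM used plain totals of counts. The order of the members was taken per 1000 bases of deposited length, pairs are given by reads and per length, and genes of other lists were named by reads. The spread test used edgeR 4.0.16 in R 4.3.3: an intercept fit with TMM factors of 0.949, 0.955 and 1.10 on 8289 genes, with each quasi-likelihood dispersion (2 residual degrees of freedom) compared with the trended prior by a one-sided F test. On simulated data for these 8289 genes, with some genes changed in 1 library, the numbers found were 0 (2-fold), 25 (4-fold), 49 (8-fold) and 50 (16-fold), each out of 50, and no call was false among 8089 others. Each simulated gene had exactly the trend dispersion for its abundance. The lack of false calls therefore does not show how many the real data would give. Ratios used a prior count of 2. Members, lists, pairs and tests were chosen with earlier results of these data known. The text names all members, the 3 highest genes of each list that had them, list genes called in the spread test and the nearest gene to each member. Cfl2, Capza1, Coro7, Capg, Carmil2, Rcsd1, Fmnl1, Diaph2, Tesk1, Myl12b, Cct2 and Cct6a were named after their values were seen. DESeq2 1.42.0, other scalings and filters and leaving out each replicate were alternatives. Pairs of libraries differed beyond sampling noise (chi-square per degree of freedom 17.9 to 103.6), so none was counted as a duplicate. Plots used matplotlib 3.10.9.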

Additional observations from a re-analysis of the deposited data

How the results depend on the processing

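All 10 genes stayed at 1 CPM or more under every scaling and with each replicate left out. At a minimum of 5 CPM 9 remained, and at 50 CPM 8. No member was called in the test of spread under any setting run. Over all genes 22 were called by edgeR, against 11 with plain library totals, 0 with a robust prior, 2 without replicate 1 and 49 DESeq2 dispersion outliers; the cause was not tested. With totals that leave out the 10 highest genes, the members had a median of 783 CPM and a summed share of 0.896%, since the totals are smaller, and 2 genes were highest in replicate 2. The count of genes highest in replicate 3, 9 by plain CPM, was 2 with TMM scaling and 2 with DESeq2 size factors, with 4 in replicate 1 and 4 in replicate 2 under each. Per gene length the log2 ratio of Pfn1 to Actb reversed to 0.65. Others kept their side and moved with the lengths to -2.36 (Tmsb4x to Tmsb10), -5.71 (Tmsb4x to Actb), -0.75 (Pfn1 to Cfl1), -4.97 (Wdr1 to Cfl1), -1.18 (Cap1 to Cfl1) and 0.87 (Gsn to Capzb). Leaving out a replicate gave 6 to 8 neighbouring pairs beyond the spread and a summed share of 0.489% to 0.520%. No paired analysis was possible because there is 1 group. The counts of Tmsb4x, 116 to 129 per library, and of the cofilin regulators limit how small a difference could be seen.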

Other observations

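Most genes of actin folding and modification were highest in replicate 3 on either scale. Of the 15 that averaged at least 1 CPM, 13 were highest there by plain CPM, against 69.1% of the 8289 such genes, and 12 after TMM scaling, against 42.1%. The sum of the 17 in the tables did not follow: after TMM scaling it was 325, 332 and 321 CPM in replicates 1, 2 and 3. Its largest parts were Pfdn5 and Setd3, at means of 97.1 and 87.6 CPM. The 17 include the 8 subunits of the chaperonin that folds new actin and tubulin, of which Cct2 was highest at a mean of 20.3 ± 2.69 CPM and Cct6a lowest at 4.55 ± 1.13 CPM (SD, n = 3). Of the 15 that entered the edgeR test of spread, 0 were called, 0 had an unadjusted p under 0.05 and DESeq2 marked 0. Over all genes the edgeR shares were 0.265% and 4.72%, and DESeq2 marked 49 of 8289. These are too few for counts in 15 genes to say anything of the list. Other lists were counted in the same way, by plain CPM and after TMM scaling. Of 3 SRF and MRTF genes 3 and 3 were highest in replicate 3, and of 5 cofilin kinases and phosphatases 5 and 4. Leukocyte markers averaging at least 1 CPM had 18 and 15 of 21. End-capping genes had 6 and 4 of 10, formins and Ena/VASP genes 7 and 5 of 11, and severing and debranching genes 7 and 5 of 11. The end-capping, formin and severing counts lay near the 69.1% and 42.1% of all genes. Arp2/3 genes had 6 and 2 of 9, myosin II genes 3 and 0 of 6 and platelet markers 8 and 2 of 12. Endothelial markers had 3 and 1 of 6 and red cell markers 0 and 0 of 12.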
